A study of Homo sapiens with 6 samples.

Results

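Keratin genes were followed in untreated WT and ARID1A-KO AID-DIvA cells. The genes were taken by name, as every row of the gene tables whose symbol is KRT followed by a number and at most 1 of the letters A to C. This gave 56 of the 57820 rows, 30 of type I and 26 of type II keratins. The 56 rows carry 55 names, because KRT222 is listed under a pair of identifiers, ENSG00000213424.4 and ENSG00000264058.1.

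RNA-seq covered 3 WT and 3 ARID1A-KO samples, numbered 3, 4 and 5 in each genotype. AID-DIvA is an osteosarcoma cell line derived from U2OS that carries a vector for the restriction nuclease AsiSI, and both genotypes carry it with the nuclease not induced. The ARID1A-KO cells were made with Cas9 and a pair of guide RNAs against ARID1A and grown as knockout clones. Which clone, or how many, gave the RNA is not stated in the sources used here, so the genotype and the clone cannot be told apart. The study describes its RNA-seq samples as biological replicates from independent experiments. All p-values set a difference between the genotypes against the spread between these samples, moderated with that of other genes. The labels name polyA RNA while the library kit is one for total RNA.

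Keratins are the intermediate filament proteins of epithelia. A type I (acidic) keratin pairs with a type II (basic) keratin to build a filament, and cells without a partner degrade the unpaired protein. The type II genes lie in a cluster on chromosome 12 and the type I genes in a cluster on chromosome 17, with the exception of KRT18, a type I gene that lies at the end of the type II cluster beside its partner KRT8. Different pairs mark simple epithelia, stratified epithelia, the root sheath of the hair follicle and the hair shaft. Osteosarcoma cells are mesenchymal and use vimentin as a main filament protein, and cultured lines of this origin can transcribe some keratin genes as well.

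The libraries held 54512105 to 84088708 reverse-stranded counts, and levels are given in CPM, counts scaled to the TMM-normalized library size. ARID1A, which codes for the DNA-binding subunit of the BAF chromatin remodelling complex, was at 166, 178 and 177 CPM in WT and at 25.1, 27.5 and 25.2 CPM in ARID1A-KO samples (log2 fold change -2.74, SE 0.07). The mesenchymal markers COL1A1, SPARC, RUNX2 and VIM were detected. The osteoblast genes SP7, IBSP and BGLAP were too low to be tested, and COL1A2 was near 0. Genes with an adjusted p under 0.05 in the quasi-likelihood test of edgeR, adjusted over 19599 tested genes by the Benjamini-Hochberg method, are called higher or lower in ARID1A-KO.

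The stretches just before the transcription starts of 3 genes with large differences are shown, 2 that were lower in ARID1A-KO cells (KRT75 and KRT33B) and 1 that was higher (KRT20). Each is the 150 bases upstream of the RefSeq start, read 5′ to 3′ on the strand of the gene, with a TATA-type motif in capitals. The build is GRCh38.p14, and differs from the GRCh37 coordinates of the gene tables.
KRT75: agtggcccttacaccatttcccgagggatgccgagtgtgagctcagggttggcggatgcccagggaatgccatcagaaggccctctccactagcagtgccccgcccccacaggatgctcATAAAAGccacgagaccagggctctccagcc
KRT33B: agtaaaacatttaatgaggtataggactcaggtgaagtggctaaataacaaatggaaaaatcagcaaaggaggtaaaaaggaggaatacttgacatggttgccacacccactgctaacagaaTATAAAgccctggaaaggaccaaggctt
KRT20: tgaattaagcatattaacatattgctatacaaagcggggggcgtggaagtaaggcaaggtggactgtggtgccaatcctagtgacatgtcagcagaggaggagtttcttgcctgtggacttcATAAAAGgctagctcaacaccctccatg
These are chr12:52434372-52434521 for KRT75, chr17:41369814-41369963 for KRT33B and chr17:40885243-40885392 for KRT20, all on the minus strand. The motif in capitals begins 31 bases before the start in KRT75 and 28 bases before it in KRT33B and in KRT20. KRT75 and KRT20, which moved in opposite directions, thus carried the same 7 letters (ATAAAAG) at nearly the same distance. The printed stretch of KRT75 had a GC content of 62.0%, above the 40.0% of KRT33B and the 47.3% of KRT20.

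Promoters of 34 of the 55 keratin names were in the RefSeq table, each spanning 250 bases before to 50 bases after the start. The letters TATAAA were found on either strand in 20 of these 34 (58.8%) and in 11.5% of all 35116 promoters. ATAAAAG, which can overlap TATAAA and was searched for after the sequences had been seen, was found in 11 (32.4%) against 4.66%. The letters of a GC box, GGGCGG, occurred in 6 of the keratin promoters (17.6%) against 45.0% of all. TGANTCA, the letters of an AP-1 site, occurred in 0 of the 34 and in 7.71% of all promoters. These are matches of letters and not binding sites, and only 7 of the 17 keratin genes tested have an entry. Among these 7, TATAAA was found in 3, ATAAAAG in 3, GGGCGG in 1 and TGANTCA in 0.

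Most keratin genes were silent or nearly so in both genotypes. Of the 56 rows, 17 had enough counts to be tested and 39 did not. Among these 39, 6 rows were at 0 counts in every sample and 26 had at most 10 counts over all 6 samples. The highest count of an untested row in any sample was 19, in KRT5, the basal keratin of stratified epithelia. All untested rows together held 410 counts, 0.0781% of the keratin counts. Differences in these genes were below the filter on low counts.

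Of the 17 tested keratin genes, 13 were called, 3 higher and 10 lower in ARID1A-KO cells. Across all tested genes 36.2% were called, 17.8% higher and 18.4% lower. The median log2 fold change of the 17 was -0.91, against 0.0066 over all tested genes. Differences of 2-fold or more were called for 9 of the 17, 2 higher and 7 lower, and for 10.8% of all tested genes, 4.86% higher and 5.92% lower. CPM values of the groups did not overlap in the same number, 13 of 17, against 49.5% of all tested genes. KRT14 and KRT86 passed the filter on low counts through the WT samples, so their presence among the tested genes is not independent of their direction.

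**Figure D1:**
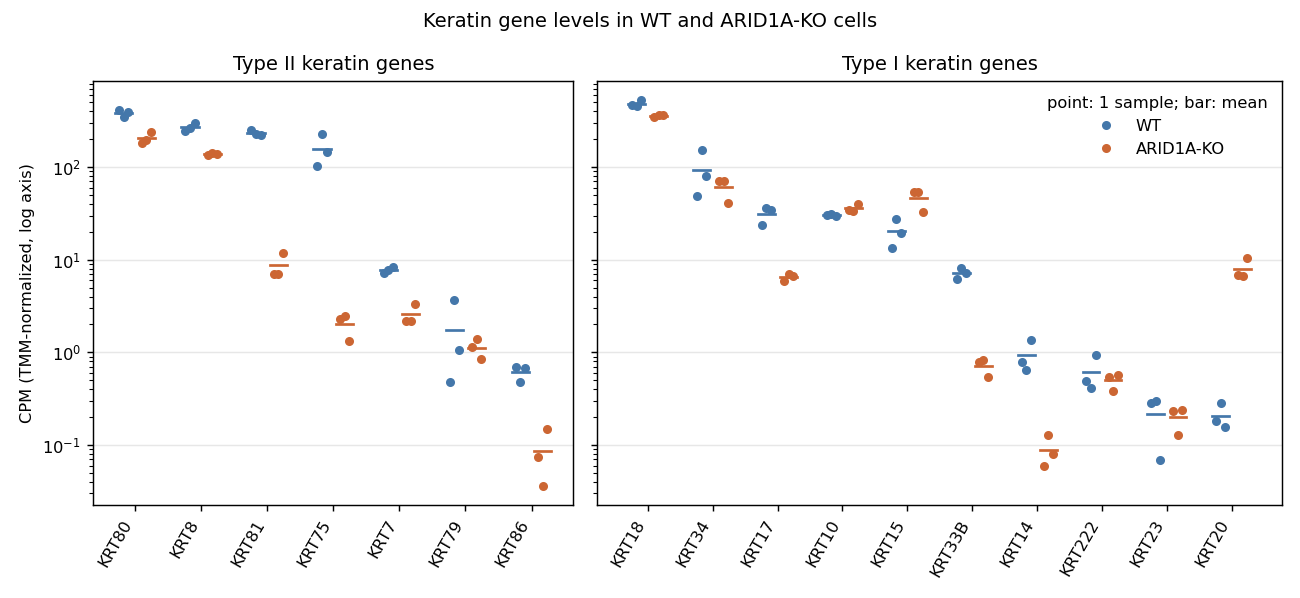
Levels of the 17 tested keratin genes in CPM on a log axis, type II left and type I right, with 1 point per sample and a bar at the mean of the 3 samples of each genotype. KRT75 and KRT81 fell from over 100 CPM in WT to under 12 CPM, while KRT20 rose from under 0.3 CPM to between 6.68 and 10.4 CPM.

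The difference by type was one of direction. All 7 tested type II genes had negative log2 fold changes (KRT79 turned positive without WT replicate 4), with a median of -1.59, and 6 of them were called, each lower. The 10 tested type I genes went both ways, with a median of -0.34, and 3 were called higher (KRT10, KRT20 and KRT15) and 4 lower (KRT18, KRT33B, KRT14 and KRT17). KRT86 among the type II and KRT14 among the type I genes passed the filter on low counts through the WT samples. Across all tested genes 17.8% were called higher and 18.4% lower. By position the split of the keratins was alike. In the cluster on chromosome 12, 784 kb long and holding KRT18, 7 of 8 tested genes were lower. In the cluster on chromosome 17, 996 kb long, 3 of 9 tested genes were higher and 3 lower. These are descriptions of 2 sets of neighbouring genes, and the difference between the sets was not tested.

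**Figure D2:**
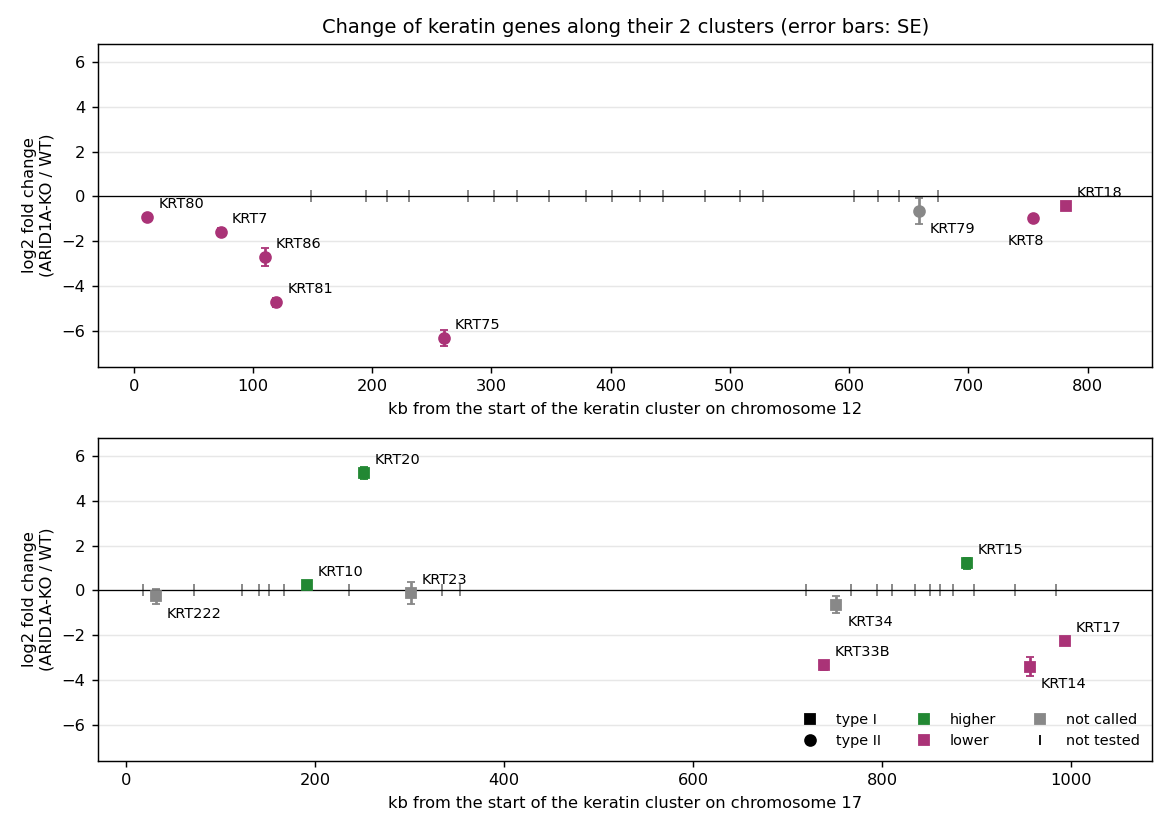
Log2 fold change (ARID1A-KO against WT, error bars SE) against distance in kb from the start of each keratin cluster, with squares for type I and circles for type II genes and ticks for rows not tested. Every tested gene of the chromosome 12 cluster lies below 0, with KRT75 lowest, and the chromosome 17 cluster holds genes above and below 0.

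The largest falls were those of KRT75 and KRT81, both keratins of the hair follicle. KRT75 is a type II keratin of the companion layer of the hair follicle root sheath and lies at chr12:52817854-52828309 in GRCh37 (ENSG00000170454.5, minus strand). KRT75 was at 102, 226 and 147 CPM in WT replicates 3, 4 and 5, and at 2.29, 2.49 and 1.34 CPM in ARID1A-KO replicates 3, 4 and 5. Every ARID1A-KO sample was thus far below every WT sample, and the WT samples themselves differed by more than those of most called keratins. The log2 fold change of KRT75 was -6.32 (SE 0.34, adjusted p = 3.18e-06 in edgeR's quasi-likelihood test), a fall of 79.7-fold and the 10th lowest of 19599. Without WT replicate 4 it was -5.97.

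KRT81 is a type II keratin of the hair shaft cortex. It lies on the minus strand at chr12:52679697-52685318 in GRCh37 (ENSG00000205426.6). KRT81 was at 251, 229 and 221 CPM in WT and at 7.09, 7.06 and 11.9 CPM in ARID1A-KO samples, a 26.6-fold fall (log2 fold change -4.73, SE 0.20, adjusted p = 7.84e-07). The WT samples lay close together, so that the difference was many times the spread between replicates. KRT86, its neighbour and another hair shaft keratin, was low throughout, at 0.689, 0.479 and 0.670 CPM in WT and 0.0734, 0.0364 and 0.148 CPM in ARID1A-KO (log2 fold change -2.69, SE 0.39, adjusted p = 0.000715). Without ARID1A-KO replicate 5 the value was -3.38. KRT86 is uncertain in identity, because 27.6% of its 100-base windows also occur in other genes, KRT81 and the pseudogene KRT87P among them, and 30.3% of those of KRT81 occur in KRT86 or KRT87P, and KRT86 overlaps KRT81 on the opposite strand and KRT7 on its own.

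The type I hair shaft keratins did not move together. KRT33B was at 6.18, 8.19 and 7.20 CPM in WT and at 0.793, 0.819 and 0.545 CPM in ARID1A-KO, a 10.1-fold fall (log2 fold change -3.34, SE 0.19, adjusted p = 4.24e-06). KRT34, next to it on chromosome 17, was at 49.2, 152 and 80.4 CPM in WT and at 71.4, 70.4 and 40.5 CPM in ARID1A-KO. The groups overlapped and KRT34 was not called (log2 fold change -0.63, SE 0.36, adjusted p = 0.203). Its value was carried by WT replicate 4, without which it was -0.09. KRT33B shares 5.54% of its 100-base windows with KRT33A, KRT34 and KRT31 and KRT34 shares 0.911%. Of 17 hair shaft rows 4 were tested, and 3 of these were lower, against 18.4% of all tested genes. KRT86, 1 of the 3, passed the filter on low counts through the WT samples.

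WT replicate 4 stood apart for a few of the keratins. Its CPM was 4.74 times the mean of WT replicates 3 and 5 for KRT79, 2.34 times for KRT34 and 1.81 times for KRT75. Over all tested genes the median of this ratio was 1.001, and 1.22% of genes reached 2 or more. KRT79 was at 0.480, 3.66 and 1.07 CPM in WT and 1.15, 1.38 and 0.841 CPM in ARID1A-KO, with overlapping groups (log2 fold change -0.66, SE 0.59, adjusted p = 0.422). Without WT replicate 4 the sign of KRT79 turned, to 0.54.

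The keratins of simple epithelia are KRT7, KRT8, KRT18, KRT19 and KRT20. KRT8 and KRT18 form the pair that simple epithelia make first in development. KRT8 was at 247, 264 and 301 CPM in WT and at 134, 143 and 140 CPM in ARID1A-KO (log2 fold change -0.96, SE 0.08, adjusted p = 3.01e-05). KRT18 was at 467, 457 and 527 CPM in WT and at 350, 362 and 367 CPM in ARID1A-KO (log2 fold change -0.43, SE 0.07, adjusted p = 0.00144). Both fell without overlap between the genotypes, KRT8 by 1.95-fold and KRT18 by 1.35-fold. The ratio of KRT8 to KRT18 in TPM, a measure of transcripts that takes gene length into account, went from 0.359 ± 0.0173 in WT to 0.249 ± 0.00433 in ARID1A-KO (SD, n = 3). TPM divides by exonic lengths of 5005 bases for KRT8 and 3218 for KRT18. Their longest protein-coding transcripts have 2437 and 1696 bases, so the level of the ratio depends on the length used. The ends of these neighbours overlap on opposite strands.

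KRT7, found in glandular and transitional epithelia, was at 7.27, 7.85 and 8.37 CPM in WT and at 2.20, 2.20 and 3.34 CPM in ARID1A-KO, a 3.01-fold fall (log2 fold change -1.59, SE 0.18, adjusted p = 0.000153). KRT20, a type I keratin of intestinal and urothelial surface cells and of Merkel cells, went the other way. It lies at chr17:39032193-39041479 in GRCh37 (ENSG00000171431.3, minus strand). KRT20 had 12, 20 and 9 counts in the WT samples and 461, 367 and 913 counts in the ARID1A-KO samples. In CPM these were 0.180, 0.282 and 0.155 in WT and 6.77, 6.68 and 10.4 in ARID1A-KO, so the gene passed from barely detected to a moderate level in every ARID1A-KO sample. The log2 fold change of KRT20 was 5.24 (SE 0.28, adjusted p = 3.00e-06), a 37.9-fold rise and the 27th highest of all tested genes. KRT19, the remaining simple keratin, had at most 11 counts in a sample and was not tested. In bulk RNA, more cells with a transcript and more transcript per cell cannot be told apart, and this holds for every difference given here.

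Among the keratins of stratified epithelia, KRT14, KRT15, KRT17 and KRT10 were tested and all 4 were called, in both directions. The share called over all tested genes was 36.2%, and KRT14 passed the filter on low counts through the WT samples. KRT14, the type I partner of KRT5 in basal cells, was at 0.779, 0.648 and 1.37 CPM in WT and at 0.0588, 0.127 and 0.0795 CPM in ARID1A-KO (log2 fold change -3.40, SE 0.41, adjusted p = 0.000248). KRT17, a keratin of hair follicles and of wounded or tumour epithelium, was at 23.9, 36.5 and 34.3 CPM in WT and at 5.92, 7.04 and 6.70 CPM in ARID1A-KO, a 4.82-fold fall (log2 fold change -2.27, SE 0.16, adjusted p = 1.16e-05). Neither overlapped between the genotypes. KRT14 shares 6.05% of its 100-base windows, mainly with KRT16, and KRT17 overlaps JUP on the same strand.

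KRT15, a type I keratin of basal cells and of stem cells in the hair follicle bulge, rose. It was at 13.5, 27.6 and 19.6 CPM in WT and at 53.5, 54.2 and 32.9 CPM in ARID1A-KO, so that the lowest ARID1A-KO sample lay just above the highest WT sample. The log2 fold change of KRT15 was 1.21 (SE 0.26, adjusted p = 0.00551), a 2.31-fold rise. KRT10, the type I keratin of suprabasal, differentiating epidermis, showed the smallest called difference. Its levels were 30.7, 30.9 and 29.6 CPM in WT and 34.4, 33.5 and 39.6 CPM in ARID1A-KO (log2 fold change 0.24, SE 0.08, adjusted p = 0.0404). That call was lost when any sample other than ARID1A-KO replicate 4 was left out, with adjusted p-values up to 0.107 and log2 fold changes of 0.16 to 0.27. The partners of these genes, KRT5 for KRT14 and KRT15 and KRT1 for KRT10, were not tested for lack of counts.

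Of the remaining keratins, only KRT80 was abundant. KRT80, a type II keratin found in many epithelia at cell margins, was at 418, 349 and 399 CPM in WT and at 184, 198 and 237 CPM in ARID1A-KO (log2 fold change -0.91, SE 0.10, adjusted p = 0.000179). The highest ARID1A-KO sample was well below the lowest WT sample, a 1.88-fold fall. KRT222 and KRT23 stayed under 1 CPM in every sample, with overlapping groups and log2 fold changes of -0.26 (SE 0.33) and -0.11 (SE 0.48). Their signs turned when single samples were left out, so no direction can be read from them.

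To set the keratins against each other, TPM values of the authors were used. The keratin rows summed to 1748, 2028 and 1884 TPM in WT and to 806, 862 and 881 TPM in ARID1A-KO samples. The mean thus went from 1887 ± 140 to 850 ± 38.9 TPM (SD, n = 3). Type I genes made up 38.8, 43.1 and 42.5% of the summed keratin TPM in WT and 70.6, 69.7 and 65.2% in ARID1A-KO. The groups did not overlap in either quantity. The level of both depends on the exonic lengths used. That of KRT81, 1929 bases, equals its longest protein-coding transcript. Those of KRT8 (5005 against 2437 bases) and KRT18 (3218 against 1696 bases) are far longer than theirs. With 3 samples against 3, no exact permutation test could pass the threshold, and none was run.

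The order of the keratins changed with the genotype. In WT cells KRT18 was highest at 494 ± 35.9 TPM, followed by KRT81 at 397 ± 30.7 TPM, KRT80 at 293 ± 28.7 TPM and KRT75 at 224 ± 87.3 TPM (SD, n = 3). KRT18, KRT81 and KRT80 did not overlap with each other, whereas KRT80 overlapped with KRT75, KRT75 with KRT8 and KRT8 with KRT34. In ARID1A-KO cells KRT18 was again highest, at 366 ± 21.3 TPM, and KRT80 (156 ± 26.3 TPM) and KRT34 (113 ± 29.8 TPM) came next, followed by KRT8 (90.9 ± 5.39 TPM). KRT34 and KRT8 overlapped there. KRT81 dropped to the 7th place (14.8 ± 5.29 TPM) with overlapping values of KRT15 above and KRT20 below, and KRT75 to the 10th (2.86 ± 0.807 TPM). The TPM of KRT15 is low for its counts, because the tables give it an exonic length of 7069 bases. KRT8 follows with 5005 bases, so the places of these genes depend on the length used.

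Most of the lost type II signal was that of 2 hair-type genes. KRT81 made up 21.2 ± 3.05% of the keratin TPM in WT and 1.74 ± 0.557% in ARID1A-KO, and KRT75 11.7 ± 3.71% and 0.338 ± 0.101% (SD, n = 3). The share of KRT18 was 26.3 ± 2.96% in WT and 43.0 ± 0.673% in ARID1A-KO, although its own level fell. KRT20 made up 0.0192 ± 0.00509% of keratin TPM in WT and 1.66 ± 0.438% in ARID1A-KO, so that even after its rise it was a minor keratin. KRT80 fell with the sum, and its share overlapped between the genotypes (15.7 ± 2.67% and 18.3 ± 2.38%). The share of KRT8 was 9.42 ± 0.960% in WT and 10.7 ± 0.161% in ARID1A-KO, and the lowest ARID1A-KO sample lay just above the highest WT sample. All these shares depend on the exonic lengths used.

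**Figure D3:**
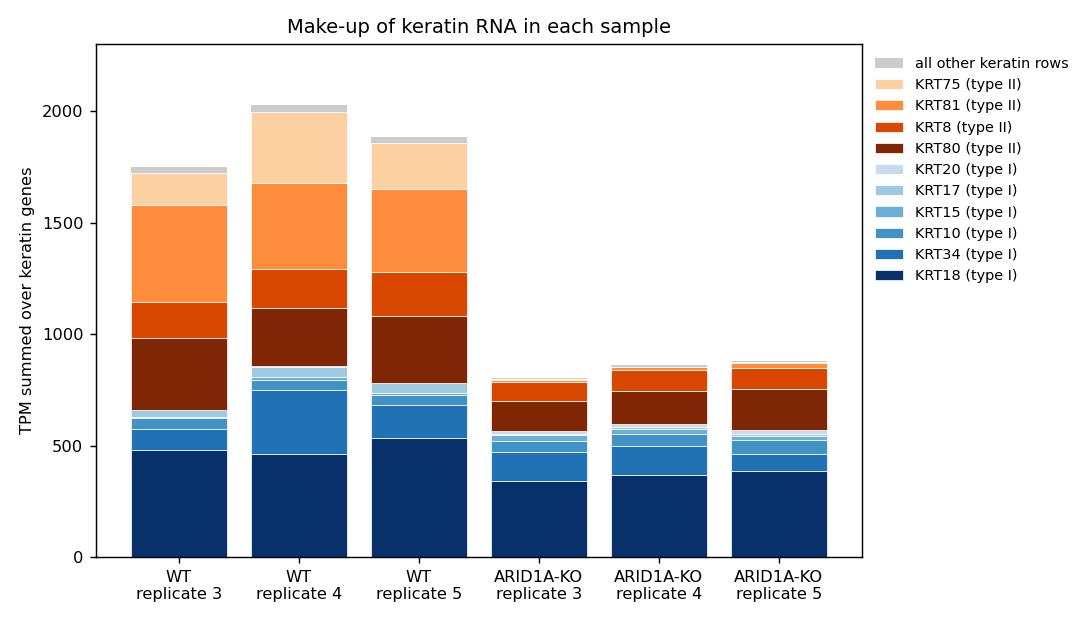
TPM summed over the keratin rows in each of the 6 samples, split by gene with type I genes in blue, type II genes in orange and all other keratin rows in grey. The bars stand at 1748 to 2028 TPM in WT and 806 to 881 TPM in ARID1A-KO, and the bands of KRT81 and KRT75 are nearly gone in ARID1A-KO.

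Other intermediate filament genes were called at a share near that of all tested genes. Of 15 listed genes 10 were tested and 4 were called, against 36.2% of all tested genes called in either direction. All 4 were higher, against 17.8% of all tested genes called higher. On the log2 scale the list's median was 0.39, and 7 of its values were positive and 3 negative. The negative values were those of DES (-0.57), LMNA (-0.27) and LMNB1 (-0.07), which were not called. VIM, the vimentin gene of mesenchymal cells, rose from 2354 ± 240 to 4224 ± 334 CPM (SD, n = 3, log2 fold change 0.84, SE 0.10, adjusted p = 0.000171). NES, which codes for nestin, was at 26.3, 28.4 and 34.8 CPM in WT and at 114, 127 and 96.1 CPM in ARID1A-KO (log2 fold change 1.91, SE 0.13). The other called genes were SYNM, the synemin gene (0.85, adjusted p = 0.0195), and LMNB2, a nuclear lamin gene (0.30, adjusted p = 0.0127).

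Desmosomes anchor keratin filaments at cell contacts through linker proteins. Of 23 listed desmosome and linker genes 17 were tested, and 2 were higher and 8 lower, with a median of -0.10. The shares over all tested genes were 17.8% higher and 18.4% lower. DSP, the gene of desmoplakin, which ties keratins to the desmosome, was at 6.45, 10.3 and 11.7 CPM in WT and at 1.45, 1.20 and 0.920 CPM in ARID1A-KO (log2 fold change -3.00, adjusted p = 3.30e-05). PKP2, which codes for plakophilin 2, also fell, with a log2 fold change of -1.27 (adjusted p = 0.000942). The linker genes PPL and EVPL, coding for periplakin and envoplakin, rose by 2.59 and 1.88 on the log2 scale from WT levels under 0.3 CPM, and EVPL passed the filter on low counts through the ARID1A-KO samples.

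The epithelial markers gave no single direction. Of 20 listed genes 13 were tested, 2 were called higher and 3 lower, and the median was 0.16. This share of calls was near the 36.2% of all tested genes. TP63, a regulator of stratified epithelia, was at 1.48, 1.39 and 1.46 CPM in WT and at 0.132, 0.109 and 0.295 CPM in ARID1A-KO (log2 fold change -2.92, adjusted p = 0.000112). It passed the filter on low counts through the WT samples. CDH3 and CDH1, coding for P-cadherin and E-cadherin, fell as well, by 1.72 (adjusted p = 0.00369) and 1.19 (adjusted p = 0.00593) on the log2 scale. EPCAM (0.44, adjusted p = 0.0274) and GRHL3 (0.89, adjusted p = 0.0488) were higher. The summed level of the list was 21.4 to 25.7 CPM in WT and 23.3 to 26.2 CPM in ARID1A-KO, and the marker CLDN3 was at 0. Whether a shift in the kinds of cells in the cultures has a part in the keratin differences was not tested.

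Cornified envelope genes, which are active with keratins in terminal differentiation, were mostly silent, with 9 of 22 tested, 4 called against 36.2% of all tested genes, and a median of -0.02. IVL, TGM1 and SBSN were lower, with log2 fold changes of -2.38, -1.69 and -1.42, and SPRR2D was higher at 3.51. Like EVPL, SPRR2D passed the filter through the ARID1A-KO samples. Of 24 listed transcription factors that act on keratin genes in epithelia, 21 were tested, with 4 higher, 3 lower and a median of 0.17, a share of calls near the 36.2% of all tested genes. CDX2, an intestinal factor, was at 1.71, 2.79 and 2.20 CPM in WT and at 5.73, 5.88 and 5.69 CPM in ARID1A-KO (log2 fold change 1.37, adjusted p = 0.000349). KLF5, a factor of proliferating epithelium, was at 64.3, 46.2 and 61.1 CPM in WT and 19.9, 20.1 and 29.5 CPM in ARID1A-KO (log2 fold change -1.30, adjusted p = 0.000389). DLX3, active in the hair follicle, was higher by 1.51 on the log2 scale. Whether any of these factors acts on the keratin genes of these cells was not tested.

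**Figure D4:**
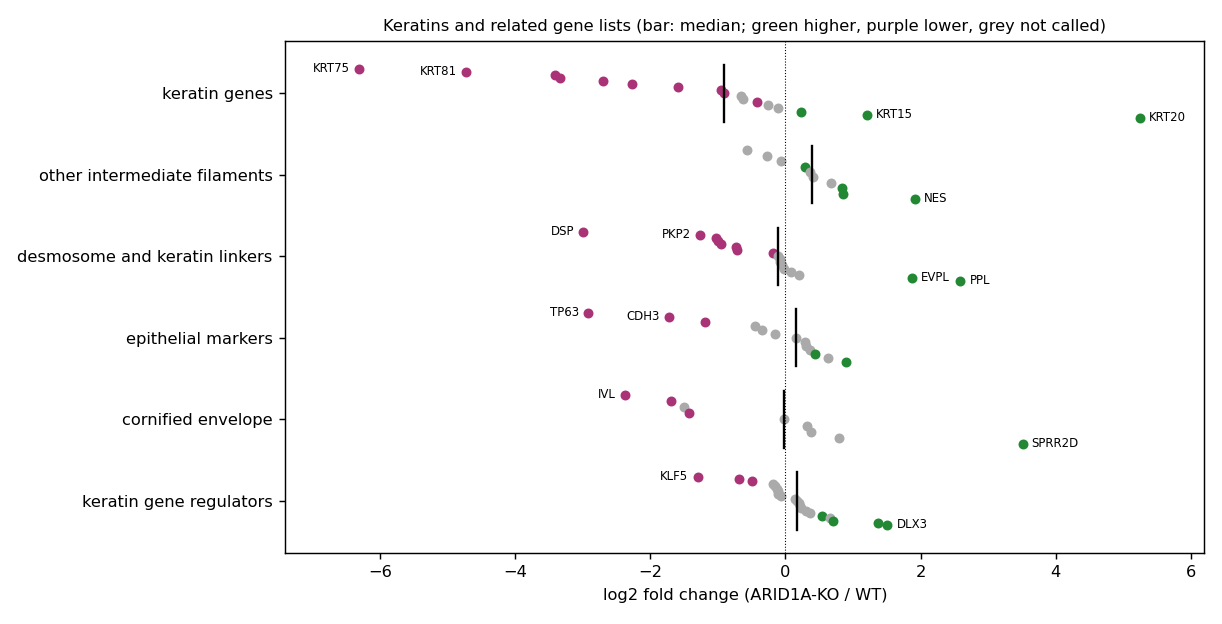
Log2 fold change (ARID1A-KO against WT) of each tested gene of the keratins and of 5 related lists, with green for genes called higher, purple for lower and grey for not called, and a black bar at the median of each list. The keratin median lies at -0.91 and the medians of the other lists between -0.10 and 0.39.

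Genes around the clusters were compared to see whether whole regions differed. Inside the chromosome 12 cluster 2 other genes were tested, LINC00592 (log2 fold change -0.09) and RP11-845M18.7 (-1.03), named after their values were seen. Of these 0 were called by edgeR and 0 by DESeq2, and 1 had an unadjusted p under 0.05. RP11-845M18.7 overlaps KRT86 on the opposite strand. Within 1 Mb of the ends of this cluster 41 genes were tested, 10 were higher and 5 lower, near the 36.2% called over all tested genes, and the median was 0.10. Inside or across the ends of the chromosome 17 cluster 3 of 5 tested genes were called, against 36.2% of all tested genes. TMEM99 was higher (0.25) and SMARCE1 (-0.54) and JUP (-1.02) were lower, and these too were named after their values were seen. Both lower genes lie at the edges of the cluster. JUP overlaps KRT17 at the end and runs past it, and SMARCE1 overlaps the sparse KRT222 row ENSG00000264058.1, which sets the start. SMARCE1 codes for another BAF subunit and JUP for plakoglobin of the desmosome. Within 1 Mb outside this cluster 5 of 63 tested genes were higher and 12 lower, below the share of 36.2%, with a median of -0.0062.

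Keratin pseudogenes can take or give reads, above all those of KRT8 and KRT18. The tables list 141 of them, of which 14 were tested and 2 were called, KRT8P3 lower and KRT18P55 higher, against 36.2% of all tested genes. Both were named after their values were seen. The 3 with the most counts were KRT8P12, KRT8P33 and KRT18P5, and their log2 fold changes of 0.24, 0.41 and 0.50 did not pass the threshold (adjusted p = 0.0863, 0.0845 and 0.0628 in edgeR's quasi-likelihood test). Of the 14 tested pseudogenes 9 had negative and 5 positive log2 fold changes, with a median of -0.25. The part of reads shared with pseudogenes in the values of KRT8 and KRT18 was not tested.

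Reads on the strand opposite to each gene were counted apart. Of 11 keratin rows tested on these counts 4 were called, KRT5, KRT6B and KRT8 lower and KRT10 higher, against 20.3% of all genes tested on that strand. KRT5 and KRT6B passed the filter on that strand through the WT samples, so their direction is tied to it. KRT18 overlaps KRT8 and TMEM99 overlaps KRT10 on the opposite strand, and which transcripts gave these reads was not tested.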

How the data were processed

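RNA-seq of 3 WT and 3 ARID1A-KO samples was used, grouped by the genotype in the labels. Reads were aligned by the authors to GRCh37 (STAR, Roddy workflow), and featureCounts gave the deposited counts of each gene, not normalized, by strand and unstranded. For levels, the legacy reverse-stranded TPM deposited by the authors were used, since another TPM column is scaled to autosomal genes only. The stranded kit gives sense reads in the reverse-stranded counts. Forward-stranded counts came to 5.83 to 6.15% of these.

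Low counts were removed by filterByExpr, and all remaining genes were TMM-normalized and tested with edgeR 4.0.16 (glmQLFit and glmQLFTest, R 4.3.3) with Benjamini-Hochberg adjustment and no covariate, while the study used DESeq2, here an alternative (1.42.0). Replicates of 1 genotype differed beyond sampling noise in every pair (chi-square per gene 7.2 to 33.9), with a common biological coefficient of variation of 0.111. ARID1A-KO replicates 3 and 4 were the closest pair (7.2), while ARID1A-KO replicate 5 stood at 33.9 and 23.4 from them. The WT pairs lay at 18.3 to 30.8. At these depths counting error is small except for genes with a few counts. Fold changes of genes with a few counts depend on the prior count.

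Keratin genes named are all 17 tested, which covers every called gene and every gene with a mean TPM of at least 1. Of the related lists, up to 4 called genes by size of change plus VIM, DSP, CDH1, EPCAM and TP63 are named, and of the pseudogenes the 3 with the most counts. The values of 1 gene that this rule takes are not reported here. The keratin genes and the lists were chosen with earlier results of these data known. Of the cell type markers, 8 of 11 found in the tables were tested. SPARC (log2 fold change -0.89), COL1A1 (-0.47), ALPL (-2.45) and PTPRC (-2.10) were lower, VIM (0.84) and MYOD1 (2.00, which passed the filter through the ARID1A-KO samples) higher, and RUNX2 (-0.03) and COL1A2 (-0.46) not called.

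Sequence shared between genes was the percentage of 100-base windows of a gene's longest protein-coding transcript (GENCODE, lifted to GRCh37) found in a transcript of another gene. Only the sense direction of transcripts was searched. Promoters came from RefSeq (GRCh38.p14). On simulated counts of this comparison (19327 genes, 200 changed) edgeR recovered 147, 119 of the 144 changed by 2-fold or more, 0 with the wrong sign, and made 17 false calls (10.4%). This false share was above the adjusted p threshold of 0.05. Far fewer genes were changed there than the 36.2% called in the data, so the false share of the real comparison cannot be read from it.

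As alternatives, the fit was repeated on unstranded counts, with RLE size factors, with DESeq2, with a minimum of 10 counts per sample or none, with replicate numbers as a block, with single samples left out, and at an adjusted p of 0.01 or with a 2-fold minimum. For levels they were unstranded TPM and leaving out KRT8 and KRT18, and for forward-stranded counts the library sizes of the reverse-stranded counts and the block.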

Additional observations from a re-analysis of the deposited data

Results flagged for a closer look

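Reads on the strand opposite to a gene lie outside the main measurement. Of 8886 genes tested on these forward-strand counts 20.3% were called, and of 11 keratin rows tested 4 were called. KRT10 drew attention because its opposite-strand level was higher in ARID1A-KO cells, at 44.0, 37.9 and 45.4 forward-strand CPM against 26.8, 31.7 and 30.9 in WT (log2 fold change 0.52, SE 0.15, adjusted p = 0.0208 in edgeR's quasi-likelihood test). TMEM99 lies on that strand and overlaps KRT10, and its own sense log2 fold change was 0.25. Which transcript gave these reads was not tested.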

How the results depend on the processing

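The 13 called keratin genes were all called again with unstranded counts, RLE normalization, DESeq2 and no filter. The fit with no filter is a weak check, because its SE was smaller for every tested keratin but KRT10 and KRT18. For KRT34 the SE went from 0.36 to 0.08, and KRT34 was called there although its groups overlap. With at least 10 counts in every sample 10 of the 13 genes were called again, as KRT14, KRT20 and KRT86 were no longer tested. With each sample left out 12 or 13 were kept, and 13 to 15 keratins were called, 2 to 3 higher and 11 to 12 lower, 6 to 8 of type I and 6 to 7 of type II. The one lost was KRT10. At an adjusted p under 0.01 12 keratins were called. Of 200 alternative values of the 17 genes, 187 kept direction and call, 5 lost the call, 3 gained it and 5 turned sign. The 5 were KRT79 without WT replicate 4 (0.54, range with each sample left out -1.11 to 0.54), KRT222 without WT replicate 5 (0.16, range -0.48 to 0.16) and KRT23 without WT replicate 3, WT replicate 4 or ARID1A-KO replicate 4 (0.11, 0.18 and 0.10, range -0.50 to 0.18). The 3 were KRT34 and KRT79 with no filter and KRT34 without WT replicate 3 (-0.94, adjusted p = 0.0451 in edgeR's quasi-likelihood test). With no filter 5 keratins were higher and 11 of type I were called, since 50 rows were then tested. Unstranded counts called 7 cornified envelope genes and 3 genes inside the chromosome 12 cluster, where no filter called 2. With each sample left out 3 to 4 epithelial markers were called, 3 without WT replicate 4 or ARID1A-KO replicate 4. Summed keratin TPM in WT and ARID1A-KO was 1703 and 728 on unstranded TPM and 1216 and 393 without KRT8 and KRT18, and the type I share was 36.4 and 63.6% and then 23.4 and 54.9%. The cause of these shifts was not tested beyond the change of genes or samples itself. With the replicate number as a block 13 keratins were called, the same 13 genes, and 38.1% of all genes. Deviations of same-numbered samples correlated at -0.18, 0.27 and 0.18, and not every sample correlated best with its own number, so the numbers were not taken as pairs. Counts near the filter limit what can be read for KRT14, KRT20 in WT, KRT86 and the untested rows.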

Other observations

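KRT5 and KRT6B, both type II keratins of stratified epithelia with too few sense counts to be tested, had more reads on the opposite strand in WT. KRT5 had 41, 40 and 44 forward-strand counts in WT and 1, 2 and 1 in ARID1A-KO samples, beside 13, 19 and 6 sense counts in WT and 4, 3 and 0 in ARID1A-KO. Its forward-strand log2 fold change was -4.96 (adjusted p = 1.04e-06 in edgeR's quasi-likelihood test). KRT6B had 47, 59 and 37 forward-strand counts in WT and 3, 5 and 0 in ARID1A-KO (log2 fold change -4.18, adjusted p = 1.60e-05). Both passed the filter on low counts through the WT samples, so these values are a description. The tables list no gene on the opposite strand of either, and both lie in the chromosome 12 cluster near KRT75. KRT8 had a forward-strand log2 fold change of -0.44 (adjusted p = 0.00368), and KRT18 overlaps it on that strand.

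With no filter on low counts, 4 further keratins with sparse reads were called, KRT5 (log2 fold change -2.44) and KRT16 (-2.46) lower and KRT19 (2.32) and KRT12 (2.31) higher. That fit gave smaller SE values for most tested keratins (0.08 against 0.36 for KRT34), so these calls are lenient and are given as a description. KRT19 had 2, 2 and 1 counts in WT and 7, 11 and 10 in ARID1A-KO. KRT16 had 10, 5 and 12 counts in WT and 1, 3 and 1 in ARID1A-KO.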
